A study of Mus musculus with 22 samples.

Results

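The 82 cytosolic ribosomal protein genes on a mouse liver array are described here across 6 groups of mice. They were taken by name: every probe that is not a control and whose gene name in the array files is Rpl or Rps with a number (with a suffix such as a, x or l where there is one), or is Rplp0, Rplp1, Rplp2 or Rpsa, with the Rps6k kinases left out. This gave 136 of the 41174 probes and 82 of the 28095 gene names. The genes are 43 of the large subunit, 31 of the small subunit, 3 of the stalk, and 5 paralogues, which are relatives of the standard genes (Rps27l, Rpl39l, Rpl3l, Rpl36al and Rps4y2). The rule goes by name and uses no measured value, but it was set with earlier results of these data known.

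Ribosomal proteins fold with ribosomal RNA into the small subunit, which reads the messenger RNA, and the large subunit, which joins amino acids. Nearly all their transcripts begin with a C and a run of pyrimidines, the TOP motif, through which the mTOR kinase and the protein LARP1 set how well they are translated. Cells that grow or divide make many ribosomes, and liver around birth holds both growing hepatocytes and blood-forming cells. Paralogues can take the place of a standard protein in some tissues.

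All mice were of the strain C57BL/6, and 1 array was made from the liver RNA of each sample. The newborn groups, Tcf7l2+/+ (wild type, 4 samples) and Tcf7l2-/- (knockout, 4 samples), were taken 5 h after birth, and every pup had been given 50 ul of 10% glucose under the skin. The adult groups were Tcf7l2loxp/loxp (control) and Tcf7l2loxp/loxp;SA-CreERT2 (knockout). All adults, controls too, received tamoxifen at 3 weeks of age, which switches on the Cre of the knockout mice. They were studied 1 to 2 months later, after a 24 h fast (4 control and 4 knockout samples) or in the fed state (3 and 3). Samples within a group are labelled as biological replicates, and the deleted part of Tcf7l2 is not given in them. Tcf7l2, a transcription factor of the Wnt pathway, differed by -0.87 on the log2 scale between newborn knockout and wild type (limma adjusted p = 0.0579), by 0.35 between fasted knockout and control (0.488) and by 0.21 between fed knockout and control (0.999). Its probe therefore showed no fall in the adults labelled knockout, and "knockout" below means labelled so.

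Cy3 marked the liver RNA and Cy5 a commercial mouse reference RNA, a pool of cell lines, with no dye swap. Each value is therefore log2 of liver over reference. Zero means that the liver and the reference gave the same normalized signal, a step of 1 is a 2-fold difference, and values are compared between groups for the same probe only. Slides 1 and 2 held the newborn wild types and the newborn knockouts, slides 3 and 4 the fasted adults, and slides 5 and 6 the fed adults. Newborn genotype, age and feeding therefore cannot be told apart from the slide. The share of all probes well above background in the liver channel was 49.6% to 63.8% on newborn arrays, 49.6% to 61.4% on fasted arrays and 22.5% to 30.8% on fed arrays. No member spot was saturated, and except for Rpl39l and Rpl3l every member was well above background on all 22 arrays.

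The beginnings of some member genes are shown first, because a pyrimidine run at the start is known for the family. The first 4 carry it at the annotated first base, and the paralogues Rps27l and Rpl36al do not. Neither do 44 of the 57 standard genes with a start, Rpl36a and Rpl39 among them. A run that begins a few bases away from that base, as in Rpl13a, was not counted. Each window holds 15 bases before and 15 bases from the annotated first transcribed base, on the gene's strand, from RefSeq on build GRCm38.p6. Capitals mark a C at that first base with at least 4 further C or T.
Rps6 (chr4:86857353-86857382, minus strand): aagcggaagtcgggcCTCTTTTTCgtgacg
Rps18 (chr17:33955651-33955680, minus strand): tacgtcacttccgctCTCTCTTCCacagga
Rpl35 (chr2:39005117-39005146, minus strand): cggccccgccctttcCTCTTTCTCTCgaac
Rps27 (chr3:90213634-90213663, minus strand): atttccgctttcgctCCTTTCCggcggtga
Rps27l (chr9:66946071-66946100, plus strand): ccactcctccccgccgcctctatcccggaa
Rpl36al (chr12:69184053-69184082, minus strand): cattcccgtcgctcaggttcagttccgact

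A start was at hand for 61 of the 82 members, and a gene was counted if any of its starts held the motif. The pyrimidine start stood in 13 of 57 genes other than paralogues (22.8%), in 0 of 4 paralogues and in 0 of 69 mitochondrial ribosomal protein genes. Over all 27025 genes with a start it stood in 3.01%. The letters CCGGAAG, the core that ETS-type factors such as GABP bind, were searched on both strands in the whole window of 300 bases (250 before the start). They were found in 24 of the 57 genes (42.1%), in 2 of 4 paralogues, in 26 of the 69 mitochondrial genes (37.7%) and in 9.93% of all genes. Read on the other strand the core is CTTCCGG, whose first 5 letters can overlap a pyrimidine run. These matches describe the letters near the annotated starts and are no evidence of binding.

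Newborn liver held more ribosomal protein mRNA relative to the reference than adult liver, in nearly every gene of both subunits. Against fasted controls, 76 of 82 members were higher in newborn wild type, 0 were lower and 6 did not pass (limma, adjusted p under 0.05). Of all 18937 genes tested, 29.5% were higher by the same rule. The median difference of the members was 1.81, a 3.52-fold rise, where the median of all genes was 0.01. In either direction 55.6% of all genes passed. Against fed controls, 77 of 82 were higher and 0 lower, beside 32.3% of all genes higher and 57.7% in either direction, with a median of 1.94 (3.83-fold) beside 0.08 for all genes. Both comparisons share the 4 newborn wild-type arrays. The difference was at least 1 in 74 members against fasted and in 76 against fed controls, and the share of all genes at that size is not given here. In bulk tissue, more cells of a type rich in these mRNAs and more mRNA per cell cannot be told apart.

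Array by array, the groups of different age did not mix. The median over the members was -0.28, -0.33, -0.52 and -0.47 on the 4 newborn wild-type arrays and -0.31, -0.52, -0.52 and -0.38 on the 4 newborn knockout arrays. The fasted controls stood at -2.24, -2.28, -2.17 and -2.01, and the fasted knockouts at -2.29, -2.07, -2.11 and -2.01. The fed controls stood at -2.37, -2.15 and -2.59, with the fed knockouts at -2.53, -2.68 and -2.08. All 8 newborn arrays lay above all 14 adult arrays, and within an age the genotypes overlapped. The group means of these medians were -0.40 ± 0.11 (SD, n = 4) in newborn wild type, -2.18 ± 0.12 (n = 4) in fasted controls and -2.37 ± 0.22 (n = 3) in fed controls.

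**Figure D1:**
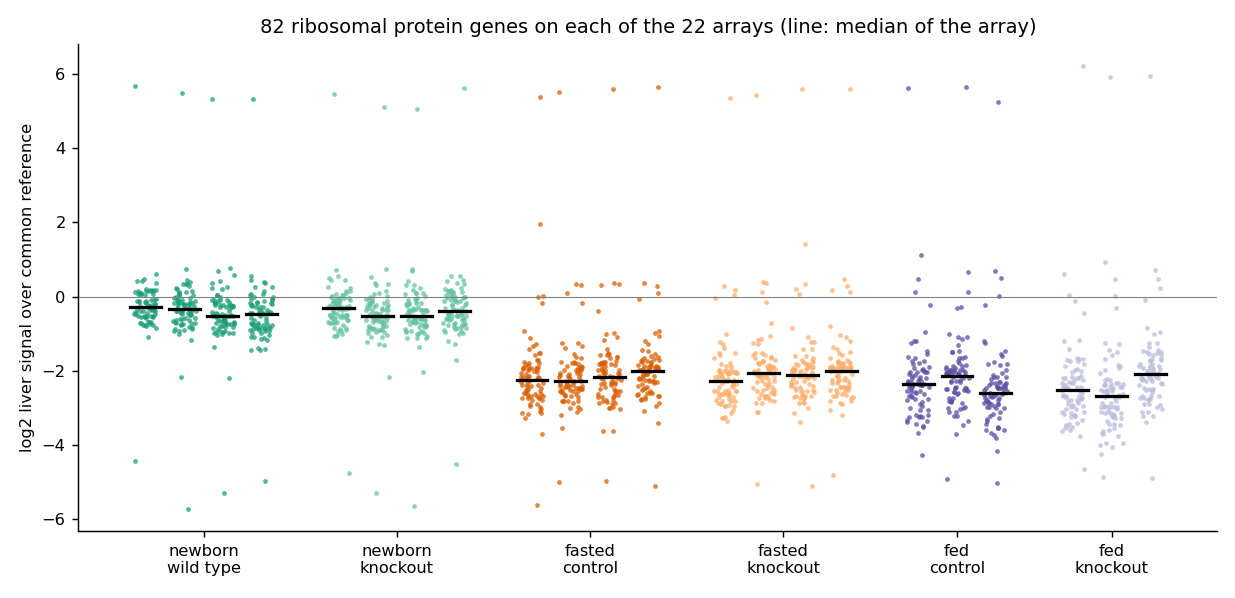
Values of the 82 ribosomal protein genes (points, log2 liver over reference) on each of the 22 arrays, coloured by group, with the median of each array as a black line. Array medians lie between -0.52 and -0.28 on newborn arrays and between -2.68 and -2.01 on adult arrays. The points near 5 to 6 are Rps4y2, and the lowest on most arrays, near -5, are Rpl39l.

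Large-subunit genes rose in 42 of 43 cases against fasted controls, with a median of 1.79 and a range from 0.02 to 2.47. Rpl35, a protein beside the exit of the nascent chain, measured -0.26, -0.17, -0.28 and -0.42 in newborn wild type and -2.91, -2.82, -2.66 and -2.61 in fasted controls. The fed controls measured -3.35, -3.01 and -3.55. Its lowest newborn value was far above its highest adult value. The difference was 2.47 ± 0.15 (SE) against fasted controls (5.53-fold, limma adjusted p = 1.26e-11) and 3.02 ± 0.16 against fed controls (8.11-fold, adjusted p = 2.09e-12). Rpl32 rose by 2.47 ± 0.17 against fasted controls (adjusted p = 1.39e-10), and Rpl34 by 3.02 ± 0.16 against fed controls (adjusted p = 3.67e-12). At the low end of the genes that rose were Rpl27a, at 0.97 ± 0.14 against fasted controls, and Rpl35a, at 1.04 ± 0.17. Within each, the groups still did not overlap.

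Small-subunit genes rose in 31 of 31 cases against each adult control group, with medians of 1.91 (fasted) and 2.11 (fed). Rps26, which lies at the mRNA exit channel, measured -0.13, -0.19, -0.44 and -0.11 in newborn wild type. It measured -2.99, -2.68, -3.03 and -2.51 in fasted controls and -2.90, -2.59 and -2.99 in fed controls. The newborn values stood apart from all adult values, by 2.59 ± 0.14 against fasted (6.01-fold, limma adjusted p = 2.94e-12) and 2.61 ± 0.15 against fed controls (6.10-fold, adjusted p = 1.07e-11). Rps6, the subunit protein that S6 kinases phosphorylate, measured -0.21, 0.16, -0.01 and 0.03 in newborn wild type. It measured -2.16, -2.42, -2.17 and -2.08 in fasted controls and -2.36, -2.30 and -2.66 in fed controls. The rise of Rps6 was 2.20 ± 0.14 (fasted) and 2.43 ± 0.15 (fed), with limma adjusted p of 4.38e-11 and 3.74e-11. Rpsa, which is also known as the laminin receptor, rose by 2.27 ± 0.13 and 2.16 ± 0.14.

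Rps19, in which mutations cause Diamond-Blackfan anaemia, had the smallest rise of the small subunit against fasted controls, 0.76 ± 0.16 (1.69-fold, limma adjusted p = 0.000356). Its values were -0.15, -0.31, -0.56 and -0.77 in newborn wild type and -1.41, -1.26, -0.98 and -1.19 in fasted controls, so the groups were close but did not overlap. The fed controls were lower, at -1.82, -2.03 and -2.12, and the rise against them was 1.54 ± 0.17 (2.92-fold, adjusted p = 1.66e-07).

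The stalk, on which elongation factors dock, is built from Rplp0 with Rplp1 and Rplp2, and all 3 genes rose against both adult groups. Rplp0 measured -0.79, -0.92, -0.85 and -1.09 in newborn wild type, -2.73, -2.81, -2.79 and -2.76 in fasted controls, and -3.01, -2.82 and -2.75 in fed controls. Its groups of different age were separate, and those of the adults overlapped. The rise of Rplp0 was 1.86 ± 0.11 (3.63-fold, limma adjusted p = 1.92e-11) against fasted and 1.95 ± 0.12 (3.85-fold, adjusted p = 3.82e-11) against fed controls. Rplp1 and Rplp2 rose by 1.44 ± 0.13 and 1.70 ± 0.17 against fasted, and by 2.13 ± 0.14 and 2.52 ± 0.18 against fed controls.

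**Figure D2:**
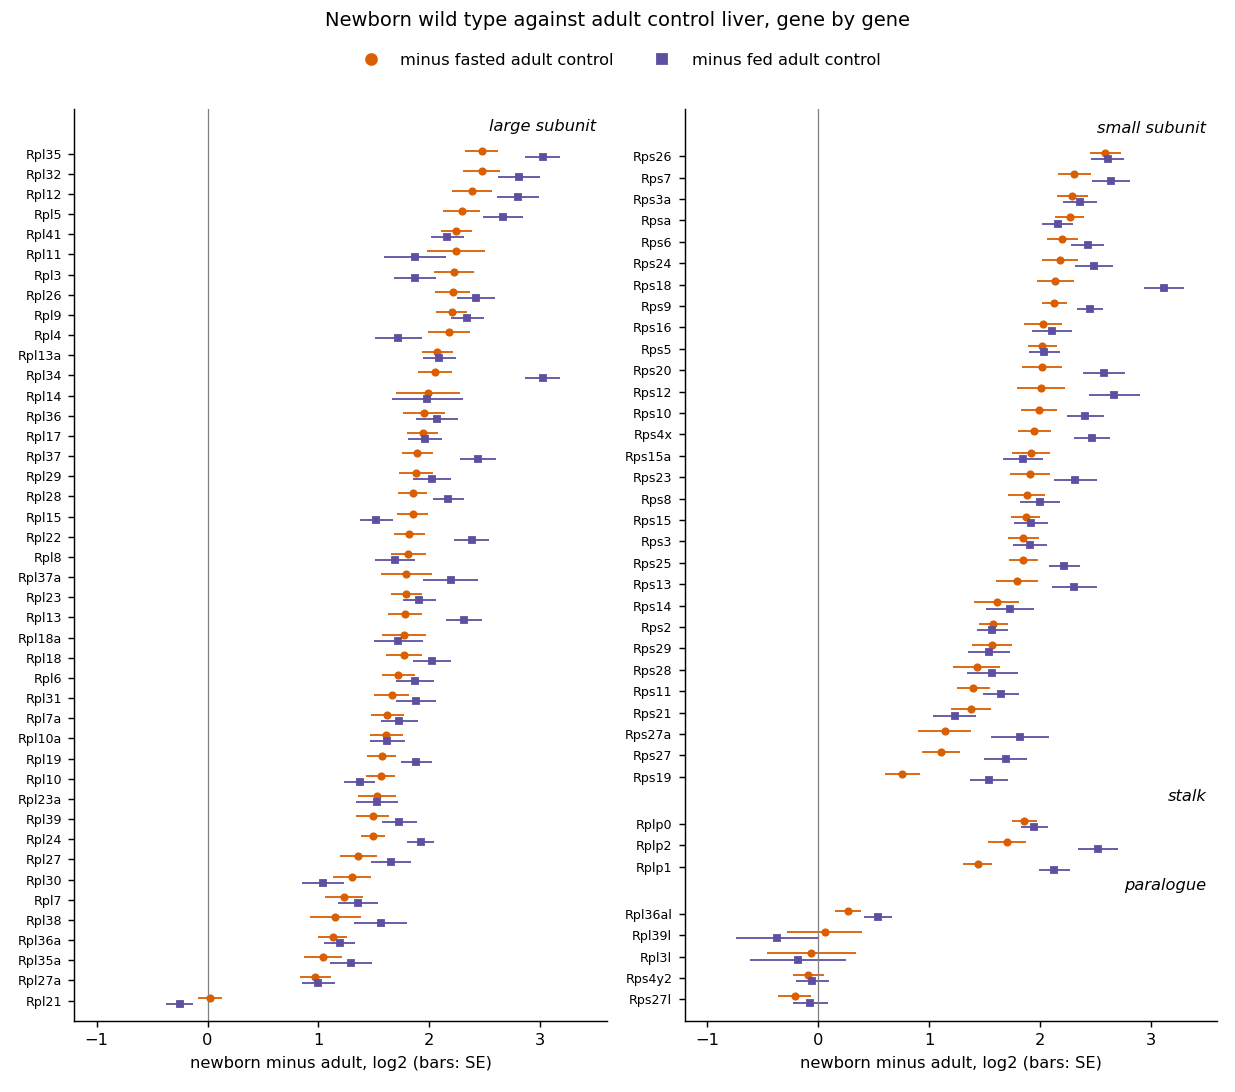
Difference of newborn wild type from fasted (circles) and fed (squares) adult controls for 81 of the 82 genes, on the log2 scale with standard errors as bars, ordered by the difference from fasted controls within each class. The genes of the subunits and the stalk lie to the right of 0 except Rpl21, and the 5 paralogues lie between -0.37 and 0.54.

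Of the 5 paralogues, 0 passed against fasted controls, where they ranged from -0.21 to 0.27, and 1, Rpl36al, passed against fed controls. Rpl39l and Rpl3l were too dim to be read, and the direction of Rps4y2 depended on the measure, so the contrast with the standard genes rests on Rps27l and Rpl36al. Rps27 measured -0.26, -0.62, -0.72 and -0.86 in newborn wild type, -1.79, -1.76, -1.64 and -1.71 in fasted and -2.20, -2.08 and -2.64 in fed controls. Rps27l, a p53 target gene, measured 0.62, -0.08, -0.26 and -0.19 in newborn wild type, -0.01, 0.31, 0.33 and 0.29 in fasted and 0.13, 0.12 and 0.02 in fed controls. The age groups were separate for Rps27 and overlapped for Rps27l. The difference from fasted controls was 1.11 ± 0.17 for Rps27 (limma adjusted p = 1.49e-05) and -0.21 ± 0.15 for Rps27l (adjusted p = 0.253). Newborn wild type 1 lay above the other 3 for Rps27l. Without that array the difference was -0.41, with an adjusted p of 0.00468. In the liver channel alone Rps27l was lower in newborns than in fed controls (-0.86, adjusted p = 0.000111), and Rps27 was higher (0.95, adjusted p = 0.0132).

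Rpl36a and its retrocopy Rpl36al differed in the ratios but not in every measure. Rpl36a measured 0.14, 0.09, -0.10 and -0.18 in newborn wild type, -1.28, -1.26, -1.10 and -0.92 in fasted and -1.25, -1.10 and -1.25 in fed controls. Rpl36al measured 0.41, 0.39, 0.20 and 0.15 in newborn wild type, -0.18, -0.17, 0.31 and 0.09 in fasted and -0.23, -0.30 and -0.23 in fed controls. For Rpl36a the ages were separate, by 1.13 ± 0.13 against fasted controls (limma adjusted p = 2.02e-07). For Rpl36al the newborns overlapped with the fasted controls (0.27 ± 0.12, adjusted p = 0.0566) and lay above the fed controls (0.54 ± 0.13, adjusted p = 0.00108). Rpl36al passed against fasted controls without newborn wild type 4 (0.32, adjusted p = 0.0437) and without fasted control 3 (0.37, adjusted p = 0.0105). In the liver channel alone neither gene passed against fed controls, with Rpl36a at 0.30 (adjusted p = 0.109) and Rpl36al at 0.28 (adjusted p = 0.172), so the contrast is not seen there. Against fasted controls in that channel Rpl36a rose by 0.67 (adjusted p = 0.000663), and Rpl36al stood at 0.20 (adjusted p = 0.297).

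Rpl39 rose by 1.49 ± 0.15 against fasted controls and by 1.73 ± 0.16 against fed controls. Its relative Rpl39l, known from the testis, was well above background on 1 of 4 newborn wild-type arrays, 2 of 4 fasted and 0 of 3 fed control arrays. Its ratio lay between -5.74 and -4.43 in newborn wild type and between -5.63 and -4.97 in fasted controls. Rpl3, which lies near the catalytic centre, rose by 2.22 ± 0.18 against fasted controls. Its muscle relative Rpl3l was well above background on 1 of 4 newborn wild-type, 1 of 4 fasted and 0 of 3 fed control arrays, so no fold is given for it or for Rpl39l.

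Rps4y2 is named Rps4l in RefSeq, where it is a transcribed pseudogene on chromosome 6. Its values lay between 5.33 and 5.68 in newborn wild type, between 5.39 and 5.67 in fasted and between 5.26 and 5.65 in fed controls. The age groups overlapped, with a difference of -0.09 ± 0.14 from fasted controls (limma adjusted p = 0.624). The reference signal of this probe itself differed by 0.80 between the arrays of these groups, and the liver channel alone gave 1.14. Its direction with age is therefore not settled. Rps4x, the X-linked standard gene, rose by 1.95 ± 0.15.

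The probes that report Rpl3, Rpl36a and their relatives are shown as examples of how related probes differ. Of these, only the Rpl36a pair bears on the contrast above. The longest run shared by the probes of Rps27 and Rps27l, not printed here, is 6 bases. Positions are those in the array files on build mm9, and capitals mark the longest run of bases shared by the 2 probes of a pair, 5 bases in each pair.
Rpl3 (chr15:79910252-79910826, minus strand, over more than 1 block): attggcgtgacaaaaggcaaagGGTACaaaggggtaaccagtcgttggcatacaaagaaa
Rpl3l (chr17:24872413-24872681, plus strand, over more than 1 block): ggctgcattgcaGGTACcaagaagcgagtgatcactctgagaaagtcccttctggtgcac
Rpl36a (chrX:131122046-131122105, plus strand): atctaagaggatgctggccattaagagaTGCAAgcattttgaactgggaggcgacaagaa
Rpl36al (chr12:70284093-70284152, minus strand): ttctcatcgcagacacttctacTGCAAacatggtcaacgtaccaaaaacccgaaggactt
The probes of a pair thus lie in different stretches of the related transcripts. How much a probe binds the relative's transcript, or transcripts of processed pseudogenes of this family, was not tested.

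**Figure D3:**
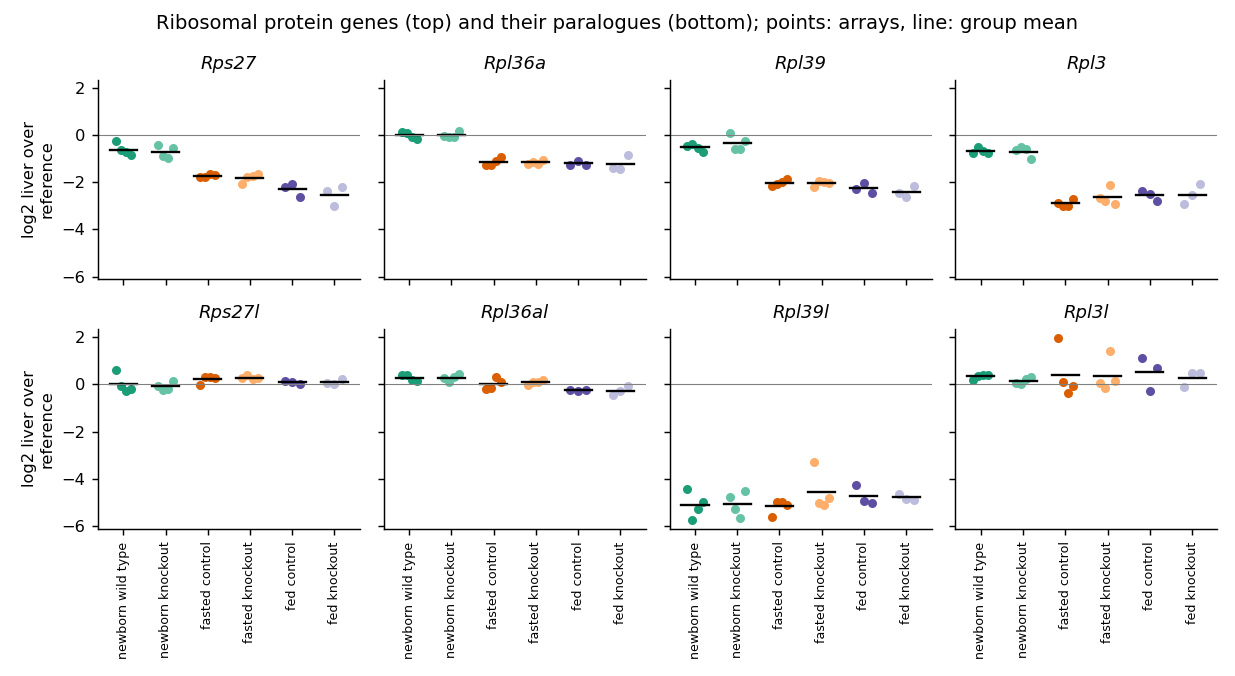
Values of 4 ribosomal protein genes (top row) and of a paralogue of each (bottom row) on every array, as log2 liver over reference, with group means as lines. In the top row the newborn arrays lie above all adult arrays. In the bottom row they do not. Rpl39l and Rpl3l were well above background on few arrays.

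Rpl21, a large-subunit protein, was the one standard gene that did not pass in the ratios. Its kept probe measured 0.41, 0.13, 0.36 and 0.26 in newborn wild type, 0.02, 0.33, 0.36 and 0.37 in fasted and 0.47, 0.66 and 0.49 in fed controls. Newborn and fasted values overlapped (0.02 ± 0.11, limma adjusted p = 0.910), and the fed values were the higher ones (-0.25 ± 0.12, adjusted p = 0.0746). Against fed controls the liver channel alone gave -1.36 (adjusted p = 4.22e-06) and median centring 0.55, so the direction there is not settled. The second Rpl21 probe differed by 0.18 from fasted controls (adjusted p = 0.355). The kept probe lies at chr5:147644677-147644736 and the second at chr5:147648267-147648326 (mm9). The second was well above background on 0 of 6 fed arrays. Whether either lies in an exon was not analysed here.

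Probes of the same gene did not always agree. Of 131 member probes tested one by one, 112 were higher in newborn wild type than in fasted controls, beside 27.4% of all 27527 probes. Of 37 genes with several tested probes, all probes were higher in 24, some in 12 and none in 1, Rpl21. The probes designed on a RefSeq mRNA were higher in 104 of 114 cases (median 1.79), and those designed on another cDNA or an EST in 8 of 17 (median 0.36). Of the 113 probes well above background on all 22 arrays, 108 were higher, and of the other 18, 4 were. These splits overlap, and what sets a low probe apart was not tested.

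Rps18 shows the pattern. Its kept probe (chr17:34088984-34089043, mm9) gave 2.14 ± 0.17 and a second probe on the mRNA (chr17:34089471-34089530) gave 2.24 ± 0.17. The remaining probe, on another cDNA (chr17:34091338-34091397), gave 0.14 ± 0.12 (limma adjusted p = 0.337) and was well above background on 0 of 6 fed arrays. For Rpsa the probes gave 2.27 ± 0.13 and -0.24 ± 0.17. For Rpl36a, the 2 probes near the end of the gene (chrX:131122514-131122573 and chrX:131122534-131122593), which share 40 bases, gave 2.50 ± 0.21 and 2.32 ± 0.17, more than the kept probe. The array files place 1 probe each of Rpl10, Rpl12, Rplp0 and Rps29 on another chromosome than the RefSeq gene. These rose in 4 of 4 cases, between 1.56 and 2.38, and those of Rpl10, Rpl12 and Rps29 are the kept probes.

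The rise held in the liver channel taken alone, without dividing by the reference. Each channel alone was quantile-normalized between arrays, which gives every array the same set of values. There, 77 members were higher and 1 lower against fasted controls (median 1.89), beside 26.3% of all genes higher. Against fed controls 76 were higher and 2 lower (median 1.57), beside 30.2% higher. The reference channel, which held the same RNA on every array, differed by a median of 0.10 between newborn and fasted arrays and by -0.11 between newborn and fed arrays. The quantile scaling itself limits such differences, above all among the brightest probes. These medians therefore do not measure how stable the reference signal was. Between 45 and 54 of the 100 probes with the strongest reference signal on an array were member probes, so the loess curve at that end rests on them. With the curve fitted without them, the counts and medians stayed close to those above. The size of the rise depended on the scaling: with median centring in place of loess the median was 1.24 against fasted and 2.39 against fed controls, where all genes moved by 0.19 and 0.32.

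Genes that work with the ribosome were read for comparison, beside 29.5% of all genes higher against fasted controls. In a list called TOP translation factors here, which also holds other genes such as Npm1, 18 of 19 rose against fasted controls and 0 fell. Their median was 1.46. Whether these mRNAs carry the TOP motif was not checked. Npm1, a nucleolar chaperone of ribosome assembly, rose by 2.36 ± 0.13, and Eef1g, a part of the elongation factor that loads tRNAs, by 1.90 ± 0.12. Of the ribosomal proteins made as ubiquitin or ubiquitin-like fusions and the ubiquitin genes, 5 of 5 rose (median 1.14). Fau, which encodes the small-subunit protein eS30, rose by 1.72 ± 0.18. Rps27a is a member and stands in this list too.

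Genes that build ribosomes or start translation had smaller medians. Of 54 ribosome biogenesis genes, 34 rose and 2 fell (median 0.50), among them Nop56, a box C/D snoRNP protein, by 1.59 ± 0.14. Of 26 initiation factors, 14 rose and 2 fell (median 0.46), led by Eif2s2 at 1.46 ± 0.13. Of 75 mitochondrial ribosomal protein genes, 10 rose and 23 fell (median -0.13). Mrpl3 rose by 1.12 ± 0.13, and Mrpl38 differed by -0.80 ± 0.12. Against fed controls the mitochondrial genes stood at 14 higher and 19 lower (median -0.04). Of 21 genes of the TOR axis, 6 rose and 6 fell (median 0.18), led by Ddit4, an inhibitor of mTORC1, at 3.77 ± 0.39. Of all genes tested, 29.5% rose and 26.1% fell against fasted controls, and 32.3% rose and 25.4% fell against fed controls. Counts near those shares, as in the TOR axis, are no result about a list.

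**Figure D4:**
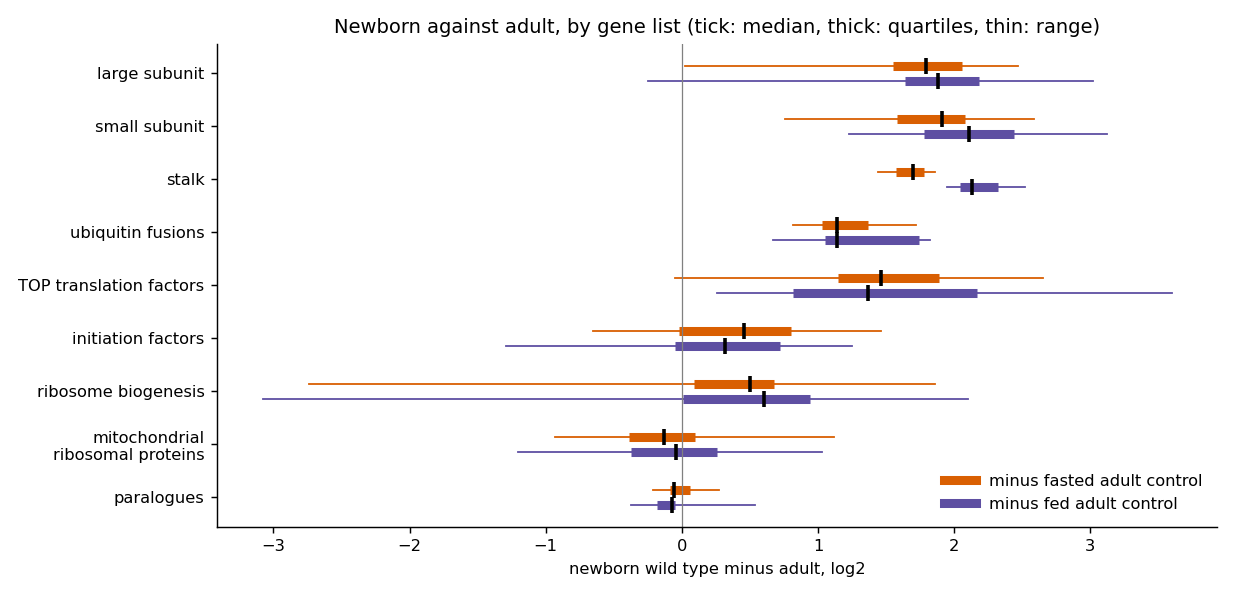
Differences of newborn wild type from fasted and fed adult controls by gene list, on the log2 scale, with the median (tick), quartiles (thick line) and range (thin line) over the tested genes. The subunits, stalk, ubiquitin fusions and TOP translation factors have medians above 1. The mitochondrial ribosomal proteins and the paralogues have medians between -0.13 and -0.04.

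Markers of several other cell types, but not of all, moved with age as well. Against fasted controls, 17 of 18 erythroid genes, 18 of 19 proliferation genes, 10 of 10 neutrophil and myeloid precursor genes and 5 of 5 fetal hepatocyte genes were higher in newborn wild type. Of all genes, 29.5% were higher. Counts for the remaining marker lists are not given here, only their array means. The mean over the erythroid genes was 5.00 to 5.46 on newborn wild-type arrays, 1.49 to 1.63 on fasted and 1.43 to 1.51 on fed control arrays. The proliferation genes stood at -0.33 to 0.39, -3.67 to -3.33 and -3.36 to -3.15, and the neutrophil and precursor genes at 5.54 to 6.06, 0.43 to 0.66 and 0.25 to 0.40. On the fed control arrays 10 of the 19 proliferation genes and 9 of the 10 neutrophil and precursor genes were well above background on no array, so those means are set in part by background. The fetal hepatocyte genes stood at 4.65 to 5.06 in newborn wild type, at -1.90 to -1.78 in fasted and at -1.80 to -1.70 in fed controls, where 4 of the 5 were above background on no array. Of the erythroid genes, 6 were above background on no fasted control array and 12 on no fed control array. The 11 hepatocyte genes, Alb and Apoa1 among them, were well above background on every array. Their mean was 6.10 to 6.41, 5.33 to 5.80 and 6.49 to 7.00. The Kupffer genes stood at 3.81 to 3.96, 3.51 to 4.17 and 2.92 to 3.30, so newborn wild type and fasted controls overlapped. The endothelial and stellate genes overlapped there too, at 1.65 to 2.57, 1.45 to 1.87 and 0.77 to 0.99. The lymphocyte genes stood at -0.15 to 0, -1.10 to -0.42 and -0.93 to -0.62, with 6 of the 9 above background on no fed control array. The pancreas and fat genes overlapped between the groups, at 0.3 to 0.48, 0.41 to 1.3 and 0.37 to 0.7. Of these 9 genes, 5 were above background on no newborn wild-type array and 7 on no fed control array. The part of these cells in the rise of the ribosomal protein genes was not tested.

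The non-member genes whose 6 group means most resembled the median of the members were Eif3d (Pearson r = 0.9998), Dlk1, Gm3552, the transcript ENSMUST00000113014 (each 0.9995) and Vim (0.9994). These are descriptions over 6 group means, which the step between the ages dominates. Eif3d, an initiation factor subunit, ran from -0.67 in newborn wild type to -1.61 in fasted and -1.70 in fed controls. Eif3d, Gm3552 and Vim were well above background on all 22 arrays. Dlk1, a fetal surface protein, ran from 0.93 to -3.94 in fasted controls and was well above background on 0 of 6 fed arrays. The transcript ENSMUST00000113014 was so on 8 of the 22 arrays, so for these genes the likeness rests in part on background.

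No member passed the test between mice labelled knockout and their controls, in newborns, fasted adults or fed adults. In newborns, 0 of 80 tested members passed, beside 1.41% of 17199 genes (1.08% higher, limma). The median knockout difference was -0.02, with a range from -0.29 to 0.31. Rps6 measured -0.19, -0.02, -0.50 and 0.12 in newborn knockouts, and Rplp0 -0.87, -0.90, -0.88 and -0.98. Both overlapped with the wild-type values given above, at differences of -0.14 ± 0.15 and 0.01 ± 0.10. Rps15a came closest on the higher side (0.31 ± 0.14, adjusted p = 0.387) and Rps2 on the lower (-0.26 ± 0.11, adjusted p = 0.344).

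In fasted adults 0 of 82 members passed, beside 0.465% of 17218 genes. The median was 0.04. Rpl11, which binds Mdm2 when ribosome assembly is disturbed, had the largest difference, 0.83 ± 0.29 (limma adjusted p = 0.279). The fasted controls measured -1.70, -2.86, -2.89 and -2.79, with the fasted knockouts at -2.02, -1.26, -1.82 and -1.81, so control 1 lay among the knockouts. In fed adults 0 of 82 passed, beside 0.215% of all genes (0.0290% higher), with a median of -0.06. For Rps4y2 the fed controls measured 5.62, 5.65 and 5.26, against 6.22, 5.94 and 5.96 in the knockouts. These did not overlap, but the difference of 0.53 ± 0.13 did not pass (adjusted p = 0.233). On slide 6 alone, with fed controls 2 and 3 and fed knockout 3, the median of the members was 0.26, of the other sign. The test of whether the knockout difference itself differed between fasted and fed mice called 0 of 82 members and 0% of all genes (limma). The median of the members was 0.11. In the liver channel alone it also called 0, but 75 of 82 members lay above 0 (median 0.34). There 16 members had an unadjusted p under 0.05, beside 7.34% of all genes. In that channel the fed knockouts lay below the fed controls in 76 of 82 members (median -0.22), and 0 passed.

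Fasting was compared with feeding in each adult genotype, and its result depended on the measure. In ratios, 16 of 82 members were higher in fasted than in fed controls and 0 lower, beside 20.2% higher and 16.5% lower of all genes (limma). The median was 0.14, and 0.05 for all genes. In knockouts, 25 were higher and 2 lower, beside 18.8% and 16.9% (35.7% in either direction), with a median of 0.26. The counts were 9 without fed control 3 and 10 without fasted control 4. In knockouts they were 13 without fed knockout 2 and 42 without fed knockout 3, of 27 in all.

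The members that led were Rps18, Rpl34, Rplp2 and Rps19. Rps18 measured -2.37, -2.56, -2.28 and -2.32 in fasted controls and -3.44, -3.04 and -3.60 in fed controls, with no overlap (0.98 ± 0.20, limma adjusted p = 0.00242). Rpl34 measured -2.67, -2.58, -2.54 and -2.55 against -3.48, -3.36 and -3.83, also with no overlap (0.97 ± 0.19, adjusted p = 0.00154). In knockouts these genes differed by 0.87 ± 0.20 and 1.22 ± 0.19, and Rps19 by 1.16 ± 0.12 (adjusted p = 2.97e-05). Rps6 measured -2.16, -2.42, -2.17 and -2.08 in fasted and -2.36, -2.30 and -2.66 in fed controls, which overlapped, while in knockouts it was higher after the fast by 0.48 ± 0.14 (adjusted p = 0.0195). Rpl21 (-0.41 ± 0.12) and Rps4y2 (-0.54 ± 0.13) fell in fasted against fed knockouts.

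The liver channel alone did not give the same direction. In controls 0 members were higher and 19 lower there (median -0.33), beside 21.8% and 16.1% of all genes. In knockouts 5 were higher and 7 lower (median 0.09), beside 17.0% and 12.1%. Of the 16 members called in the ratios of controls, 5 had the same sign in the liver channel, and of the 27 in knockouts, 21 had. The reference channel, with the same RNA throughout, differed between fasted and fed arrays by a median of -0.22 in either genotype. In it 9 members were higher and 33 lower on the fasted control arrays than on the fed control arrays, beside 25.9% and 33.3% of all genes. With median centring 76 members were higher in controls and 77 in knockouts, beside 37.5% and 41.2% of all genes, with medians of 1.09 and 1.33 beside 0.26 and 0.30 for all genes. Rps18 and Rpl34 each differed by 0.19 in the liver channel of controls, against 0.98 and 0.97 in the ratios. A direction of the family with fasting is therefore not settled by these arrays.

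**Figure D5:**
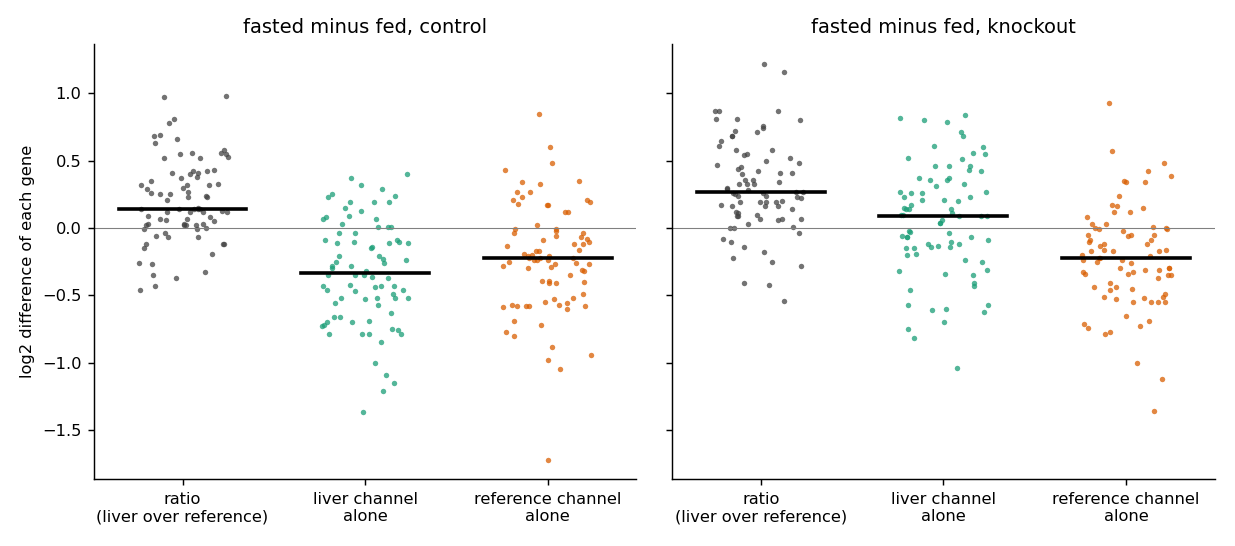
Fasted minus fed difference of each member in control (left) and knockout (right) mice, on the log2 scale, from the ratio and from each channel alone, with medians as lines. Medians in controls are 0.14 for the ratio, -0.33 for the liver channel and -0.22 for the reference channel. In knockouts they are 0.26, 0.09 and -0.22.

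Hepatocyte markers differed between the fasted and the fed arrays, which lie on different slides. Of 11 such genes, 10 were lower in fasted than in fed controls (median -1.13) and 11 in knockouts, and in controls 5 of 12 Kupffer cell genes and 6 of 10 endothelial and stellate genes were higher. Among the other translation lists, TOP factors counted 6 higher and 3 lower of 19, initiation factors 1 and 7 of 26, ribosome biogenesis genes 10 and 5 of 54, and mitochondrial ribosomal proteins 16 and 8 of 75. Of all genes, 20.2% were higher and 16.5% lower in fasted than in fed controls, and 16.9% were lower in knockouts. Counts near those shares are no result about a list. The part of these markers, of the slides and of the lower share of detected probes on fed arrays in the values of the ribosomal protein genes was not tested.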

How the data were processed

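Liver RNA of 22 mice was measured on 2-colour Agilent arrays of design 014868. Per the file headers, the authors' scans were read with Feature Extraction 10.5.1.1 under protocol GE2_105_Dec08, while the submitters' processing notes name 8.5.1.1. The deposited files hold spot intensity (median signal and local background of each channel) and the log10 ratio of reference over liver. The deposited table of all samples repeats that log10 ratio, with a largest difference of 0 on every array and column medians of 0 to 0.0666.

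Here, median intensities were background-corrected (normexp, offset 50, with local backgrounds marked as outliers replaced by the array's median background) and normalized by loess with control spots at weight 0. The sign was turned to log2 of liver over reference. Flagged spots were set to missing, spots of a probe averaged, and the brightest probe was kept per gene name. Tests took in probes whose liver signal stood well above background on 4 or more of the newborn or 3 or more of the adult arrays. For age the filter was 3 or more of all 22 arrays, so a probe seen only in newborns could enter. The 8 newborn arrays (6 residual degrees of freedom), the 14 adult arrays (10) and, for age, all 22 (16) were fitted with limma 3.58.1 in R 4.3.3 (lmFit, eBayes, two-sided, Benjamini-Hochberg over all genes tested). The threshold was an adjusted p of 0.05. The fits were tested on simulated data. The number of arrays limits the precision, and p-values weigh a difference between groups against the spread between samples of a group. For age, feeding and newborn genotype the groups lie on different slides, and that spread does not fully cover differences between slides.

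All 136 probes matched a RefSeq gene, 116 by accession and 20 by symbol. Files were read in R with the package data.table (version 1.17.8), and figures drawn with matplotlib 3.10.9. The genes named are the 3 with the largest change in each direction that passed with separate ranges, or the 2 with the smallest p where fewer than 2 passed, with Rplp0, Rpsa, Rps6 and 4 paralogue pairs always, and up to 2 genes of each list. Rpl21, Rps4x and the probe examples were chosen after their values were seen, as were Rpl27a, Rpl35a, Rplp1 and other members used as examples. The members and lists were chosen with earlier results of these data known. Alternatives were the background, normalization, channel, filter, probe, slide, replicate block and each array left out. The channels alone were quantile-normalized between arrays. A loess without the member probes and a choice of RefSeq mRNA probes were added after seeing the data. Some single genes are counted in the totals but not reported here.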

Additional observations from a re-analysis of the deposited data

Results flagged for a closer look

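Among 124 groups of values of named members, 7 held a sample far from the others (Dixon's gap test, which by chance marks about 1 in 20 groups). Rpl11 stood at -0.13 in newborn knockout 4, where the others lay between -0.47 and -0.45. Rpl11 also stood at -1.70 in fasted control 1, where the others lay between -2.89 and -2.79. Rps26 stood at -0.23 in newborn knockout 1, above the others at -0.52 to -0.49. In fasted control 1, Rpl21 stood at 0.02, below 0.33 to 0.37, and Rps27l at -0.01, below 0.29 to 0.33. In fasted knockout 1, Rpl13 stood at -3.15, below -2.75 to -2.68, and the dim probe of Rpl39l at -3.29, above -5.11 to -4.81.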

How the results depend on the processing

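The rise of the members from adult to newborn kept its direction, with 76 to 79 genes passing, under every alternative run on genes other than the reference channel. In the main fits 29.5% of all genes were higher against fasted and 32.3% against fed controls. The counts between genotypes were 0 under each alternative run. The medians that moved beyond the spread of arrays were, for newborn wild type against fasted controls, 1.57 with outlier-marked local backgrounds kept and 1.24 with median centring. Against fed controls they were 2.20 with Feature Extraction's processed signals (all genes 0.46), 2.39 with median centring and 1.57 in the liver channel alone. With every probe tested, 121 probes passed against fed controls. The reference channel alone gave 26 calls (17 higher) and a median of 0.10 against fasted, and 29 calls (21 lower) and -0.11 against fed controls. Between genotypes the median was 0.13 in newborns with median centring, -0.11 in fasted adults with backgrounds kept, and 0.26 in fed adults within slide 6. The interaction median was 0.34 in the liver channel alone.

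Fasting against feeding in controls, with 16 calls and a median of 0.14, gave 43 and 0.40 with processed signals (all genes 0.42), 76 and 1.09 with median centring, 19 and -0.33 in the liver channel, 42 and -0.22 in the reference channel, and 33 calls with all probes. In knockouts, with 27 calls and 0.26, these were 62 and 0.61, 77 and 1.33, 12 (7 lower), 38 and -0.22, and 43, and 17 calls with backgrounds kept. In the reference channel of knockouts 4338 of all 17218 genes were higher and 5264 lower. The share of all genes called with processed signals, all probes or backgrounds kept is not given here. Those counts are therefore no result about the members. The cause was not tested. Single genes turned as well. With median centring, fasting gave Rpl3 0.53 and Rpsa 0.75 in controls and 0.80, 0.85 and, for Rpl21, 0.04 in knockouts; age gave Rps4y2 0.30 (fasted) and Rpl21 0.55 (fed). In the liver channel, fasting in controls gave Rpl39 -0.66, Rps27 -0.73 and Rps27l -0.46, and age gave Rps4y2 1.14.

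Same-numbered samples of the 2 newborn genotypes correlated at 0.50, 0.35, 0.39 and -0.23. In the other comparisons the correlations ran from -0.13 to 0.16, so replicate numbers did not pair those samples. Whether they pair the newborn samples is not settled. With the replicate block 10 members passed in fasted against fed controls, and the other counts stayed within 1.5 times. Leaving out 1 array at a time gave counts of 0 between genotypes and for the interaction, 9 to 18 for fasting in controls, 13 to 42 in knockouts, 76 to 77 against fasted and 77 against fed controls for age. The medians ran from -0.07 to 0.03 (newborn knockout), 0 to 0.08 (fasted knockout), -0.22 to 0.07 (fed knockout), 0.08 to 0.28 and 0.17 to 0.44 (fasting in controls and knockouts), -0.02 to 0.27 (interaction), and 1.77 to 1.86 and 1.88 to 1.99 (age). Scaling between arrays by the average intensity (Aquantile) leaves ratios as they are. On fed arrays fewer probes were well above background, which limits dim members there.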
